A study of Homo sapiens with 8 samples.

Results

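The lysosomal cathepsins were described here as 8 genes taken by symbol from 60754 genes: CTSA, CTSB, CTSC, CTSD, CTSH, CTSL, CTSS and CTSZ. Messenger RNA was sequenced from the human cell line MEG-01, an established line of megakaryoblastic leukaemia cells, in 2 libraries for each of 4 groups. Untreated cells, for which no culture time is given, formed the first group. The others received the phorbol ester PMA, an activator of protein kinase C used to induce megakaryocytic differentiation, at 100 nM for 48 h, the same PMA with Ceefourin 2 (an inhibitor of the transporter ABCC4) at 20 µM for 48 h, or Ceefourin 2 without PMA for 48 h. For Ceefourin 2 without PMA, no dose is given in the sources used here. All groups are the same line in the same serum-supplemented medium, no vehicle is named, and the labels do not say that libraries of a group came from separate cultures, so p-values measure the spread between these libraries, which may be technical.

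Cathepsins are the main proteases of the lysosome. CTSB, CTSC, CTSH, CTSL, CTSS and CTSZ are papain-like cysteine proteases, CTSD is an aspartic protease, and CTSA is a serine carboxypeptidase that also stabilises the sialidase NEU1 and the galactosidase GLB1. They are made as inactive proenzymes, carried to the lysosome largely by mannose 6-phosphate receptors, activated there at low pH, and held in check outside it by cystatins and serpins. In the megakaryocyte lineage, lysosomal enzymes are packed into the lysosomes that platelets carry.

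Total expected counts, the read counts that RSEM assigns to genes, were 44430292 to 89950886 per library. Mitochondrially encoded transcripts took 2.55% to 3.94% of counts in the 4 libraries without PMA and 4.53% to 9.61% in the 4 with it, with the 2 highest shares in replicate 1 of PMA (9.61%) and of PMA plus Ceefourin 2 (8.32%). The megakaryocyte markers summed to 316 to 325 TPM (a level per transcript length, scaled to the same total in each library) in untreated cells, mostly the integrin chain ITGA2B. Their sum was 1042 to 1151 TPM after PMA, 1099 to 1176 after PMA plus Ceefourin 2 and 367 to 434 after Ceefourin 2. All 9 tested rose with PMA, against 27.9% of all tested genes. The platelet chemokine PF4 was at 0 in untreated cells and after PMA. The 7 erythroid markers summed to 2147 to 2350 TPM in untreated cells, 573 to 605 after PMA, 348 to 460 after PMA plus Ceefourin 2 and 988 to 1102 after Ceefourin 2. The 12 monocyte and macrophage markers summed to 220 to 221 TPM in untreated cells and 422 to 471 after PMA, 383 to 423 after both agents and 180 to 196 after Ceefourin 2, mostly CD68, itself a lysosomal membrane protein, with CD163 at 0 in all 4 groups and CD14 and MRC1 under 1 TPM. Of the 7 tested, 3 rose with PMA (CD68, CSF1R and FCGR1A) and 2 fell (LYZ and ITGAM), against 27.9% and 25.7% of all tested genes. With Ceefourin 2 alone, the comparison in which CTSS fell, 1 of these 7, ITGAM, fell, against 0.722% of all tested genes. All 7 erythroid markers fell there as well. In the same comparison 1 megakaryocyte and 1 lymphoid marker rose, against 0.959% of all tested genes. The 8 osteoclast markers summed to 2.63 to 2.72 TPM in untreated cells, 48.3 to 52.3 after PMA, 68.1 to 76.8 after both agents and 3 to 4.08 after Ceefourin 2, with CALCR at 0. All 7 tested rose with PMA, against 27.9% of all tested genes. They include CTSK and ACP5, which are also counted below among the other cathepsins and hydrolases. The CTSK call was lost in 4 of 18 alternatives. With both agents against PMA alone, the comparison in which CTSL rose, 1 of the 7, NFATC1, was called higher, against 0.918% of all tested genes. No marker of the other lists was called there. The 7 lymphoid markers summed to 1.26 to 1.34 TPM in untreated cells, 22.7 to 27.0 after PMA, 21.0 to 26.8 after both agents and 2.33 to 2.38 after Ceefourin 2, with CD3E and MS4A1 at 0. In every group 6 of the 7 were below 1 TPM, so most of the sum after PMA came from 1 marker. Only 2 were tested, and 1 rose with PMA. The part of these markers and of the mitochondrial share in the cathepsin values was not tested, and in bulk RNA fewer cells of a type and less RNA per cell cannot be told apart.

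Of the 8 cathepsins, 7 were expressed at 19.96 TPM or more in every library and 1 was nearly silent. In untreated cells, the order by mean TPM was CTSH (255), CTSC (218), CTSB (183), CTSL (139), CTSD (70.6), CTSA (40.4), CTSS (36.1) and CTSZ (0). CTSH and CTSC overlapped between their libraries, as did no other neighbours in that order. CTSZ, a carboxypeptidase, had between 0 and 4 counts per library, 0.12 TPM at most, and was the only member under the low-count filter. The gene spans (GENCODE 29, GRCh38) were chr15:78921058-78949574 for CTSH, chr11:88293592-88337787 for CTSC, chr8:11842524-11869448 for CTSB, chr9:87725519-87731393 for CTSL, chr11:1752752-1764573 for CTSD, chr20:45890144-45898820 for CTSA, chr1:150730196-150765957 for CTSS and chr20:58995185-59007247 for CTSZ. CTSA and CTSL lie on the plus strand and the others on the minus strand. Counts behind each value were between 1328 and 68170 per library for the 7 expressed genes. They were whole numbers for CTSA, CTSB, CTSC, CTSH, CTSL and CTSS, and not whole for CTSD in 8 of 8 libraries, where RSEM divided reads with other genes. CTSD shares its strand with the overlapping gene AC068580.4, which had 4.38 to 43.21 counts, against at least 4169 for CTSD. The CTSL pseudogenes had 0 to 10 counts.

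**Figure D1:**
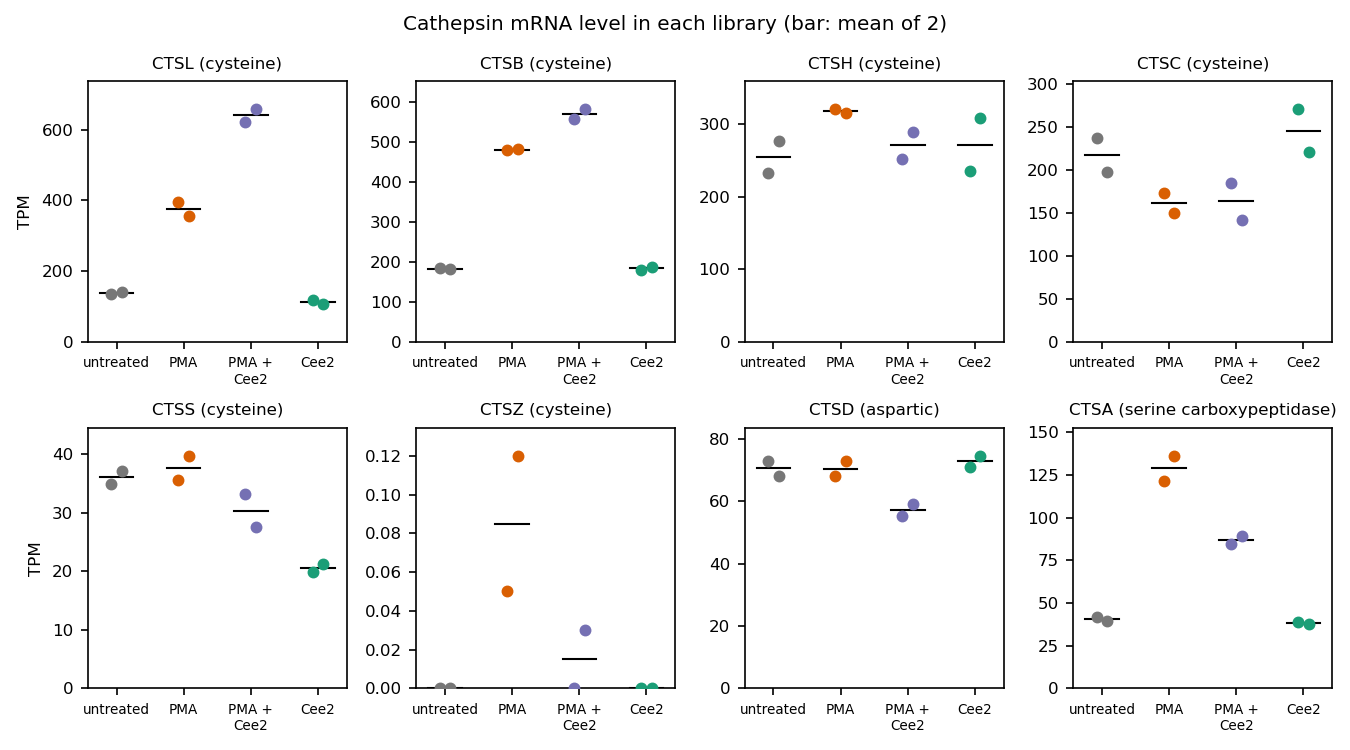
Level of each cathepsin in TPM (linear axis from 0, scaled per gene) in the 8 libraries, by group; points are libraries and the bar is their mean (Cee2, Ceefourin 2). CTSL, CTSB and CTSA stand apart with PMA, CTSS is lowest with Ceefourin 2 alone, and CTSZ stays at or under 0.12 TPM.

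How cathepsin mRNA changed during induced differentiation was asked by setting PMA against untreated cells. CTSA, CTSL and CTSB rose about 3-fold to 4-fold, CTSH and CTSD rose by less, and CTSC and CTSS were not called. In edgeR, 5 of the 7 tested cathepsins were called higher at a Benjamini-Hochberg adjusted p below 0.05, against 27.9% of all tested genes. No cathepsin was called lower, against 25.7% of all genes. None had an unadjusted p below 0.05 in that direction, against 4964 of all genes. DESeq2 also called 0 lower, against 4249 of all genes. The median log2 fold change of the 7 cathepsins was 0.55, and that of all 17314 tested genes was -0.002. Fold changes here and below are on counts scaled between libraries by TMM. On the TPM scale the median of all genes moves to -0.14 (log2(TPM + 1)) and the share of calls that are higher goes from 52.1% to 35.04%.

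CTSA, the serine carboxypeptidase, had 41.5 and 39.3 TPM in untreated cells and 121.7 and 136.2 TPM after PMA. Both PMA libraries were far above both untreated ones, a 3.77-fold rise (log2 fold change 1.92, SE 0.09, edgeR adjusted p = 3.81e-06). Of all tested genes, 90.9% had a lower fold change. CTSL, a potent endopeptidase, had 136.6 and 140.5 TPM without and 395.5 and 355.8 TPM with PMA. The groups did not overlap, and the rise was 3.36-fold (log2 1.75, SE 0.10, edgeR adjusted p = 8.83e-06). CTSB, an endopeptidase that also removes dipeptides from the carboxyl end, had 184.0 and 183.0 TPM without and 479.8 and 483.2 TPM with PMA. The groups lay far apart, a 2.87-fold rise (log2 1.52, SE 0.09, edgeR adjusted p = 8.04e-06). The calls for CTSA, CTSL and CTSB held in all 18 alternatives tried, with log2 fold changes of 1.65 to 2.00, 1.43 to 1.85 and 1.39 to 1.60. Without replicate 1 of both PMA groups, where the mitochondrial share was highest, the log2 rise of CTSL was 1.66.

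The smaller rises were less secure. CTSH, an aminopeptidase, had 232.4 and 276.6 TPM in untreated cells and 320.5 and 315.4 after PMA. Its groups did not overlap, yet the untreated libraries differed from each other by more than the nearer of them differed from PMA. Its log2 fold change was 0.55 (SE 0.18, edgeR adjusted p = 0.0345), and the call was lost in 6 of 18 alternatives, among them the fits without untreated replicate 1, without PMA replicate 1 and without PMA replicate 2. CTSD, the main aspartic protease of lysosomes, had 73.0 and 68.2 TPM without and 68.3 and 72.9 TPM with PMA, and these overlapped. Its log2 fold change on scaled counts was 0.24 (SE 0.09, edgeR adjusted p = 0.0422), lost in 11 of 18 alternatives. It turned to -0.0006 on the TPM scale, where all genes had a median of -0.14, and it was lost without any 1 of the untreated, PMA or PMA plus Ceefourin 2 libraries (log2 0.23 to 0.27).

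CTSC and CTSS missed the threshold in opposite directions. CTSC, the dipeptidyl peptidase that activates granule serine proteases, had 237.3 and 198.0 TPM in untreated cells and 173.4 and 149.5 after PMA. Both PMA libraries lay below both untreated ones, at -0.29 on the log2 scale (SE 0.13, 95% interval -0.58 to 0.004, edgeR adjusted p = 0.0879). CTSS, the protease that trims the invariant chain of class II molecules and stays active at neutral pH, had 34.9 and 37.2 TPM without and 35.5 and 39.7 TPM with PMA, which overlapped. Its log2 fold change was 0.26 (SE 0.10, edgeR adjusted p = 0.0634). With the replicate number as a block, both were called: CTSC lower (edgeR adjusted p = 0.00451) and CTSS higher (edgeR adjusted p = 0.0331), which made 6 higher and 1 lower. That fit called 5667 of all genes higher and 5489 lower.

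**Figure D2:**
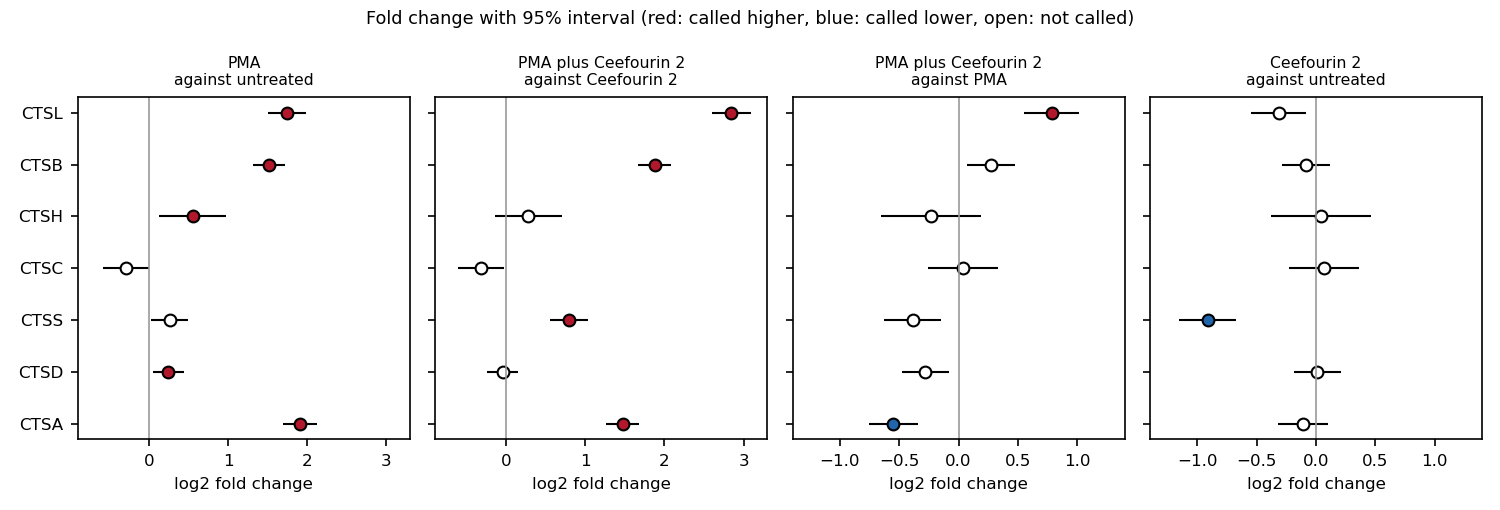
Log2 fold change of the 7 tested cathepsins with the 95% interval from edgeR in 4 comparisons (x axis in log2 units, wider in the 2 left panels); filled red points were called higher, filled blue lower, open points not called. CTSL, CTSB and CTSA are called higher with PMA in both left panels, and each right panel holds at most 1 call in a direction.

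The PMA effect was also measured in cells that had Ceefourin 2, at 20 µM with PMA and at a dose not given without it. A difference in dose therefore cannot be told apart from PMA here. These libraries share none with the comparison above, but all 8 were fitted together with a shared spread. In edgeR, 4 of 7 cathepsins were called higher, against 28% of all genes, and 0 lower, against 25.6%. At an unadjusted p below 0.05, 1 cathepsin, CTSC, was lower, against 4891 of all genes. DESeq2 called 0 lower, against 4371 of all genes. CTSL rose from 117.1 and 107.8 TPM with Ceefourin 2 alone to 623.3 and 657.6 TPM with both agents, a 7.20-fold rise and the largest of the cathepsins in any comparison (log2 2.85, SE 0.11, edgeR adjusted p = 1.96e-06). Of all tested genes, 94.99% had a lower fold change. CTSB rose from 180.9 and 188.0 to 558.8 and 582.5 TPM, a 3.67-fold rise, and CTSA from 39.0 and 37.6 to 84.3 and 89.3 TPM, a 2.77-fold rise. CTSS rose from 20.0 and 21.3 TPM to 33.1 and 27.5 TPM (log2 0.79, SE 0.10, edgeR adjusted p = 0.000445), with no overlap.

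In the same comparison the other 3 were not called. CTSC had 270.8 and 221.5 TPM with Ceefourin 2 alone and 184.7 and 142.3 TPM with both agents, without overlap (log2 -0.32, SE 0.13, edgeR adjusted p = 0.0653; called lower with the replicate block, edgeR adjusted p = 0.00255). CTSH had 235.5 and 308.3 TPM and then 252.4 and 289.6 TPM, the latter inside the former (log2 0.28, edgeR adjusted p = 0.241); without Ceefourin 2 replicate 2 it was called higher (log2 0.55, edgeR adjusted p = 0.0331). CTSD had 71.1 and 74.6 TPM and then 55.4 and 59.3 TPM, lower in TPM in both libraries, while its log2 fold change on scaled counts was -0.05 (SE 0.09). On the TPM scale it was called lower (log2(TPM + 1) difference -0.34, limma adjusted p = 0.0169), where all genes had a median of -0.15.

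Adding Ceefourin 2 to PMA moved CTSL and CTSA in opposite directions. In edgeR, 1 of 7 cathepsins was called higher, against 0.918% of all genes, and 1 lower, against 0.913%. CTSL went from 395.5 and 355.8 TPM with PMA to 623.3 and 657.6 TPM with both, well clear of the PMA libraries, a further 1.72-fold rise (log2 0.78, SE 0.10, edgeR adjusted p = 0.0139). CTSA went from 121.7 and 136.2 TPM down to 84.3 and 89.3 TPM, still above the untreated 41.5 and 39.3 TPM, a level 1.47 times lower (log2 -0.55, SE 0.09, edgeR adjusted p = 0.0273). These calls share the PMA libraries with the comparison of PMA and untreated cells. Without replicate 1 of PMA and of PMA plus Ceefourin 2, the CTSL rise was 0.94 (edgeR adjusted p = 0.229) and the CTSA difference -0.57 (edgeR adjusted p = 0.392), sizes no smaller, in a fit with 1 library in each of these groups that called 1 gene in all. The CTSL call was lost in 5 of 18 alternatives, with an adjusted p of 1.58e-10 to 0.229 over them and 0.124, 0.0679 and 0.0849 without PMA replicate 2, PMA plus Ceefourin 2 replicate 1 and replicate 2. The CTSA call was lost in 7, with 2.88e-05 to 0.392 over them, and 0.0662, 0.231, 0.207 and 0.119 without PMA replicate 1, PMA replicate 2, PMA plus Ceefourin 2 replicate 1 and replicate 2.

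Among the other cathepsins, CTSB stood at 479.8 and 483.2 TPM with PMA and 558.8 and 582.5 TPM with both agents. The groups did not overlap, but the log2 difference, 0.27 (SE 0.09), was not called (edgeR adjusted p = 0.197). CTSD went from 68.3 and 72.9 to 55.4 and 59.3 TPM and CTSS from 35.5 and 39.7 to 33.1 and 27.5 TPM, also without overlap and not called (log2 -0.28 and -0.39). With the replicate block these 3 were called as well (edgeR adjusted p = 0.0298 for CTSB higher, 0.0256 for CTSD lower and 0.0393 for CTSS lower), which made 2 higher and 3 lower. That fit called 821 of all genes higher and 661 lower. CTSH and CTSC had log2 fold changes of -0.23 (SE 0.18) and 0.04 (SE 0.13), with 95% intervals of -0.66 to 0.19 and -0.25 to 0.33.

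With Ceefourin 2 in the absence of PMA, 1 cathepsin was called. CTSS had 34.9 and 37.2 TPM in untreated cells and 20.0 and 21.3 TPM with Ceefourin 2, a level 1.88 times lower (log2 -0.91, SE 0.10, edgeR adjusted p = 0.0109). In edgeR, 1 of 7 was called lower, against 0.722% of all genes, and 0 higher, against 0.959%. At an unadjusted p below 0.05, 2 were lower (CTSS and CTSL) and 0 higher, against 1060 and 1294 of all genes. DESeq2 called 1 lower and 0 higher, against 330 and 507 of all genes. Of all tested genes, 3.70% had a lower fold change than CTSS. The call was lost in 6 of 18 alternatives (adjusted p from 3.64e-10 to 0.0842), with 0.0572, 0.0828 and 0.0507 without untreated replicate 1, untreated replicate 2 and Ceefourin 2 replicate 1. CTSL had 117.1 and 107.8 TPM against 136.6 and 140.5 TPM in untreated cells, lower in both libraries and not called (log2 -0.32, SE 0.10, edgeR adjusted p = 0.208). Its 95% interval, -0.55 to -0.08, did not include 0. For CTSA, CTSB, CTSC, CTSD and CTSH the 95% intervals of the log2 fold change included 0 and lay within -0.38 and 0.47.

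The interaction asked whether the Ceefourin 2 effect differed with and without PMA. As the dose without PMA is not given, a difference in dose cannot be told apart from such an interaction. For CTSL the point estimates had opposite signs, -0.32 without and 0.78 with PMA, a difference of 1.10 on the log2 scale (SE 0.14, 95% interval 0.77 to 1.43), the largest of the 7. Its edgeR adjusted p was 0.0744, so it was not called; it was called with the replicate block (edgeR adjusted p = 0.0146), by DESeq2 (adjusted p = 1.56e-07) and without the low-count filter (edgeR adjusted p = 1.83e-09), and over its 17 alternatives the adjusted p reached 0.710. In edgeR 0 of 7 cathepsins were called higher, against 0.0116% of all genes, and 0 lower, against 0%. At an unadjusted p below 0.05, 3 were higher (CTSL, CTSS, CTSB) and 2 lower (CTSA, CTSD), against 612 and 622 of all 17314 tested genes. DESeq2 called 1 higher and 0 lower, against 82 and 128 of all genes. CTSS had a difference of 0.53 (SE 0.15), from -0.91 without PMA to -0.39 with it, and CTSA one of -0.44 (SE 0.13), from -0.11 to -0.55.

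**Figure D3:**
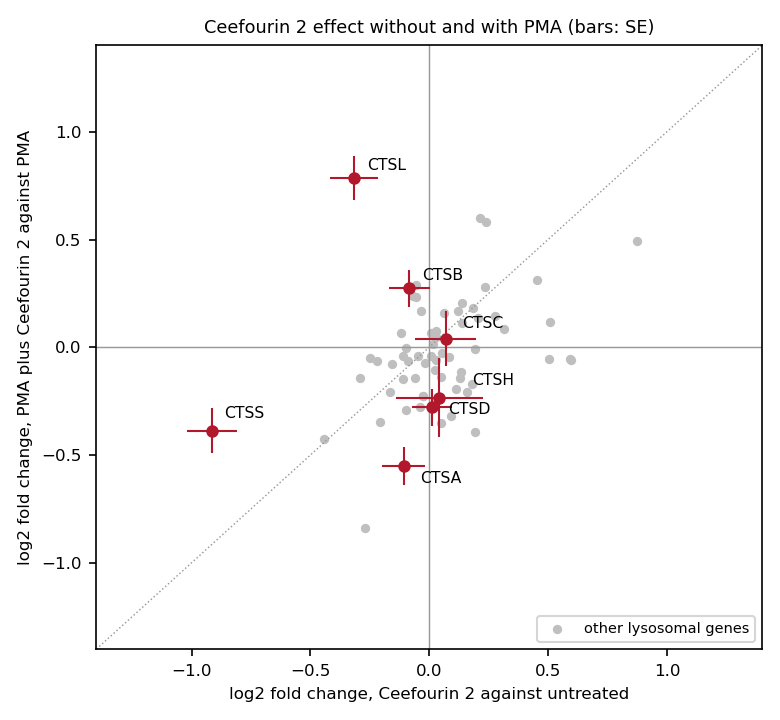
Log2 fold change with Ceefourin 2 in cells without PMA (x axis) and with PMA (y axis) for the 7 tested cathepsins (red, bars are SE) and 60 other lysosomal genes (grey; ACP5 lies outside the axes); the dotted line marks equal effects. CTSL lies at -0.32 and 0.78, CTSA at -0.11 and -0.55 and CTSS at -0.91 and -0.39, while the other 4 lie nearer the centre.

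The 8 cathepsins summed to 939.7 and 942.9 TPM in untreated cells, 1595 and 1553 after PMA, 1792 and 1848 after PMA plus Ceefourin 2 and 934.4 and 959.0 after Ceefourin 2. CTSL and CTSB together held 34.2% of the sum in untreated cells, 54.5% after PMA, 66.5% after PMA plus Ceefourin 2 and 31.4% after Ceefourin 2 (means of 2 libraries). The highest mean share was that of CTSH in untreated cells (27.0% ± 3.3, SD, n = 2), although CTSC led in replicate 1 (25.2% against 24.7%), of CTSB after PMA (30.6% ± 0.73) and of CTSL after both agents (35.2% ± 0.56). CTSC held 23.1% ± 3.0 of the sum in untreated cells, 10.3% ± 0.88 after PMA and 9.01% ± 1.8 after both agents, while its own mean level was 218, 161 and 164 TPM. Cysteine cathepsins made up 88.2%, 87.3%, 92.1% and 88.3% of the sum in the order untreated, PMA, PMA plus Ceefourin 2 and Ceefourin 2.

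**Figure D4:**
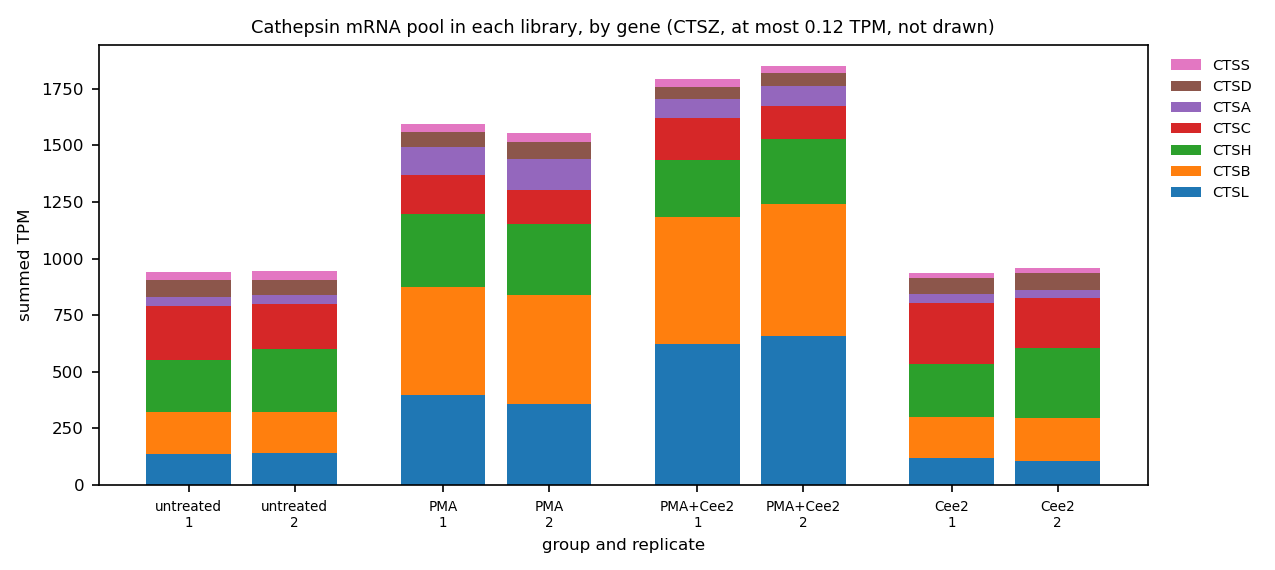
Summed TPM of the cathepsins (linear axis from 0) in each of the 8 libraries, stacked by gene, for untreated cells, PMA, PMA plus Ceefourin 2 (PMA+Cee2) and Ceefourin 2 (Cee2). The sum is 934 to 959 TPM without PMA and 1553 to 1848 with it, and most of the added height is CTSL and CTSB.

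Likeness between expression patterns was measured as the root mean square difference of log2 CPM, centred per gene, over the 8 libraries, which share the groups and are a description only. Among the 7 cathepsins the closest pair was CTSD and CTSH (0.21) and the farthest CTSC and CTSL (1.34). The 3 with large PMA rises lay between: CTSA and CTSB at 0.30, CTSB and CTSL at 0.36, and CTSA and CTSL at 0.57. Of 10525 other genes with a mean of at least 5 CPM, the nearest to CTSL was CLU (0.12), the chaperone clusterin, then TAPBPL (0.18) and SSH1 (0.20). CTSB was nearest to SH3BGRL3 (0.07), SH3BP5L (0.11) and FAM20B (0.11), and CTSA to the tetraspanin CD82 (0.12), the GTPase RAC2 (0.12) and ROBO2 (0.12). CTSS was nearest to PRKAR1B (0.11), NTS (0.15) and SH3BGRL (0.15). The flatter genes had nearer neighbours, as with CTSC and USP40 (0.03), CTSD and NFX1 (0.04) or CTSH and the long noncoding RNA AC008124.1 (0.05).

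Promoters were read to show which letters stand near the starts of those cathepsin genes that had a promoter entry. Lysosomal genes are known for an E-box with the core CACGTG, bound by TFEB and its relatives, and PMA is known to act through AP-1, which binds TGANTCA. In RefSeq promoters (GRCh38.p14), 250 bases before to 50 after the start, searched on both strands, 6 of the 8 cathepsins were matched: CTSA, CTSC, CTSD, CTSH, CTSL and CTSZ. The core CACGTG stood in 2 of these 6, CTSA and CTSD, and in 7.26% of all 35116 promoters. CTSA held it at positions -42 and -25 from the start, the latter as the longer TCACGTGA, an overlapping form found in 0.980% of all promoters, and CTSD at -47. These starts are those of the RefSeq entries, and the matches lie inside the GENCODE gene spans given above, not before them. The promoters of CTSL, CTSC, CTSH and CTSZ did not hold these letters in this window, and none of the 6 held TGANTCA, which 7.71% of all promoters do. The 3 stretches below are the matches, 5′ to 3′ on the gene's strand with the core in capitals, from chr20:45891281-45891310 and chr20:45891298-45891327 (plus strand) and chr11:1763957-1763986 (minus strand).
CTSA at -42: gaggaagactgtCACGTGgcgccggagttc
CTSA at -25: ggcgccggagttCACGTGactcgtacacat
CTSD at -47: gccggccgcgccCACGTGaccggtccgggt
The log2 fold changes with PMA were 1.92 for CTSA and 0.24 for CTSD, which held the core. They were 1.75 for CTSL, 0.55 for CTSH and -0.29 for CTSC, which did not hold it in this window. CTSB and CTSS were not among the matched promoters, and CTSZ was under the low-count filter. The part of these letters in the PMA response was not tested. A match is a description of the sequence, not a binding site shown here.

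Of the 4 genes of that factor family, 2 rose with PMA, against 27.9% of all tested genes. The factor TFE3 rose from 16.3 and 16.6 to 22.7 and 22.8 TPM with PMA (log2 0.69, SE 0.10, edgeR adjusted p = 0.000807). TFEB, at 1.32 and 0.51 TPM in untreated cells and 1.64 and 1.46 after PMA, was also called (log2 1.10, edgeR adjusted p = 0.0359), a call lost in 8 of 18 alternatives, among them those without untreated replicate 2 or any 1 library with PMA (log2 0.63 to 1.77 with 1 library left out). TFEC and MITF were not called, at 11.9 and 8.32 against 12.1 and 11.6 TPM and at 3.95 and 3.72 against 2.9 and 1.53 TPM; with the replicate block 3 of the 4 genes were called higher and 1 lower, and without PMA replicate 1 it was 1 higher and 1 lower.

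Of 37 tested other lysosomal hydrolases, 21 rose and 5 fell, with a median log2 fold change of 0.79 beside -0.002 over all genes. Over all tested genes 27.9% rose and 25.7% fell, the background for both lists here. On the log2(TPM + 1) scale 19 hydrolases rose and 8 fell, where 3106 of all genes rose and 5757 fell. Without replicate 1 of both PMA groups, 20 rose and 1 fell. Among the risen ones with the smallest p were the sulphatase IDS (17.7 and 19.6 to 59.9 and 63.9 TPM, log2 1.83), the carboxypeptidase SCPEP1 (3.44 and 3.04 to 36.4 and 37.4 TPM, log2 3.59) and the phospholipase PLA2G15 (6.32 and 5.52 to 25.5 and 24.4 TPM, log2 2.37). Of 24 membrane and proton pump genes, 19 rose and 2 fell (median 0.54), on the log2(TPM + 1) scale 12 rose and 2 fell and on log2(TPM + 0.1) 9 rose and 1 fell, and without replicate 1 of both PMA groups 15 rose and 0 fell. With any 1 library left out 16 to 19 rose and 0 to 1 fell, 0 without an untreated or a PMA library. By smallest p, they were led by the tetraspanin CD63, from 248.8 and 266.8 to 1272 and 1331 TPM (log2 2.55), and the pump subunit ATP6V0A1 (log2 1.76). No difference between the cathepsins and these lists was tested.

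**Figure D5:**
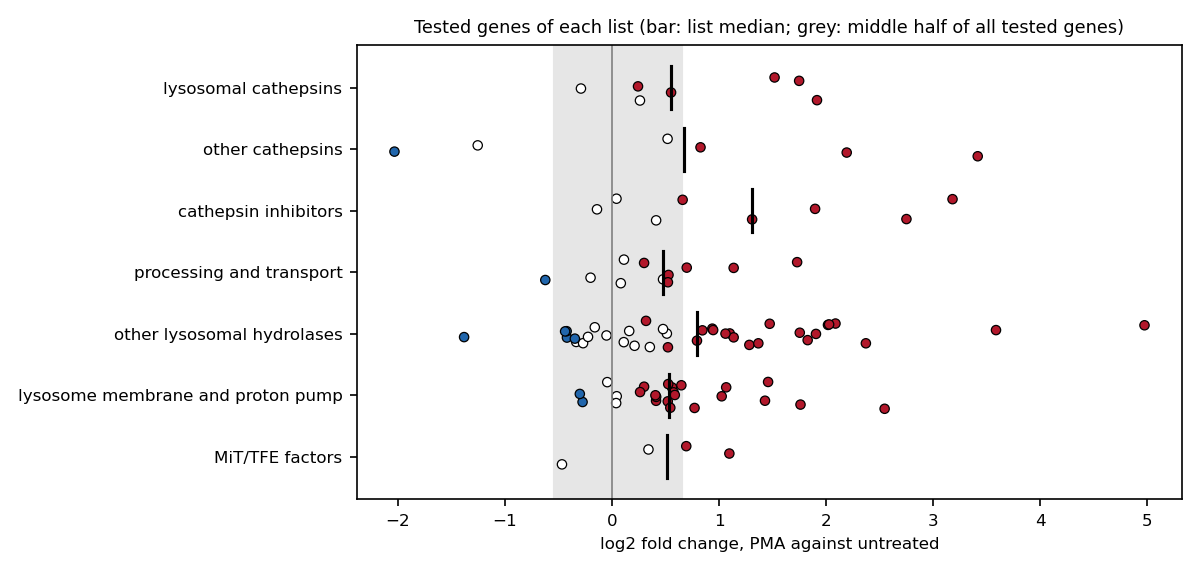
Log2 fold change after PMA (x axis) of each tested gene in 7 lists; red points were called higher, blue lower, open points not called, the bar is the list's median and the grey band the middle 50% of all tested genes (CST1, at 0 counts in untreated cells, is not drawn). CTSA, CTSL and CTSB form the right-hand group of the lysosomal cathepsins, at 1.52 to 1.92, and lie within the range of the other lysosomal hydrolases.

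Of 11 processing and transport genes, 6 rose with PMA and 1 fell (median 0.48), against 27.9% and 25.7% of all tested genes. On the log2(TPM + 1) scale 3 rose and 2 fell, where 3106 of all genes rose and 5757 fell. SORT1, a sorting receptor that also carries cathepsins, rose from 18.1 and 16.3 to 47.2 and 45.7 TPM (log2 1.73, SE 0.08, edgeR adjusted p = 3.12e-06). With Ceefourin 2 added it stood at 30.3 and 29.1 TPM, lower than with PMA alone (log2 -0.58, edgeR adjusted p = 0.0151), a call lost without any 1 of the PMA or PMA plus Ceefourin 2 libraries (log2 -0.61 to -0.56). The CTSA partners NEU1 and GLB1 rose with PMA by log2 1.14 and 0.52, the latter not on the TPM scale. With both agents NEU1 stood at 46.4 and 42.5 TPM. It was not called against PMA alone, a comparison in which CTSA was lower. GNPTAB, a subunit of the enzyme that makes the mannose 6-phosphate tag, fell from 22.7 and 17.5 to 11.9 and 11.1 TPM (log2 -0.62), and its partner GNPTG rose (log2 0.70). PSAP rose by log2 0.53 and SCARB2 by log2 0.30, both not on the TPM scale, and SCARB2 also not without untreated replicate 1, PMA replicate 1 or PMA replicate 2 (log2 0.26 to 0.37). The receptors M6PR (142.1 and 129.2 against 114.9 and 129.9 TPM) and IGF2R, the uncovering enzyme NAGPA and LGMN were not called; LGMN, a protease that processes several cathepsins, stayed at 0.28 to 0.75 TPM in all 8 libraries.

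Among 15 cathepsin inhibitors, 9 were tested. With PMA, 6 rose and 0 fell in edgeR, against 27.9% and 25.7% of all tested genes. None was lower at an unadjusted p below 0.05, against 4964 of all genes, and DESeq2 called 0 lower, against 4249 of all genes. On the log2(TPM + 1) scale 5 rose and 1 fell, where 3106 of all genes rose and 5757 fell. The abundant inhibitors were those that were not called or rose slightly. CSTB, the main cytosolic cystatin, had 60.5 and 56.4 TPM in untreated cells and 49.4 and 51.4 after PMA and was not called. CST3, the secreted cystatin C, had 32.1 and 35.6 TPM and then 46.7 and 43.3 TPM (log2 0.66, SE 0.18, edgeR adjusted p = 0.0154), a call lost on the TPM scale and without untreated replicate 1 or PMA replicate 1 (log2 0.53 to 0.83). CST7, an intracellular inhibitor of CTSC and CTSL, rose from 1.25 and 1.71 to 4.09 and 5.40 TPM (log2 1.90) and stood at 2.17 and 1.74 TPM with both agents. SERPINB3 and SERPINB4, which inhibit papain-like and chymotrypsin-like proteases respectively, reached at most 1.32 TPM after PMA, CST1 was listed at 0 in untreated cells and at 1.72 and 1.38 TPM after PMA, and CD74 reached 1.62 and 1.51 TPM (log2 1.31, lost without untreated replicate 1 or PMA replicate 1, log2 1.11 to 1.59). SERPINB1, an inhibitor of neutrophil-type serine proteases, was lower with Ceefourin 2 both in the presence of PMA (121.6 and 161.2 to 56.5 and 62.0 TPM, log2 -1.28, edgeR adjusted p = 0.0151) and in its absence (119.4 and 136.1 to 65.9 and 72.8 TPM, log2 -0.99, edgeR adjusted p = 0.0371). The former call was lost without PMA replicate 2 or either PMA plus Ceefourin 2 library (log2 -1.49 to -1.03), and the latter without any 1 untreated, Ceefourin 2 or PMA plus Ceefourin 2 library (log2 -1.13 to -0.84).

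Of 6 tested cathepsins outside the 8, 3 rose and 1 fell with PMA, against 27.9% and 25.7% of all tested genes. With the replicate block 4 rose, in a fit that called 5667 of all genes higher and 5489 lower. In untreated cells all 7 cathepsins outside the 8 lay below the 7 expressed ones in TPM. CTSF had 12.7 and 15.2 TPM in untreated cells and 14.2 and 19.6 TPM after PMA (log2 0.52, edgeR adjusted p = 0.0883). CTSW, a cathepsin of cytotoxic lymphocytes, rose from 2.13 and 3.28 to 21.2 and 26.2 TPM (log2 3.42, SE 0.28, edgeR adjusted p = 3.58e-05). The lymphoid marker sum also rose, though 6 of the 7 markers were below 1 TPM in every group. CTSO rose from 0.33 and 0.43 to 1.5 TPM in both libraries (log2 2.19) and CTSK, the collagenase of osteoclasts, from at most 1.02 TPM to 1.66 and 1.39 TPM (log2 0.83; lost without either untreated library or PMA replicate 1, log2 0.63 to 1.00). CTSV, the close paralogue of CTSL, fell from 0.78 and 0.47 to 0.09 and 0.23 TPM (log2 -2.03) while CTSL rose. CTSG, at most 0.46 TPM in any library, was not called, and CTSE was not tested.

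Of 12 CTSC substrates, the granule serine proteases, 5 were tested and 3 rose with PMA, against 27.9% of all tested genes. GZMB went from 0.09 and 0.12 TPM to 270.3 and 111.3 TPM, and to 456.1 and 420.4 TPM with both agents, while CTSC itself had 142.3 to 184.7 TPM in those 4 libraries. TPSAB1 and TPSB2, the mast cell tryptases, rose by log2 1.89 and 1.47 at levels of at most 2.97 TPM; the TPSB2 call was lost without untreated replicate 1 (log2 1.28 to 1.76 with 1 library left out) and the TPSAB1 call without replicate 1 of both PMA groups (log2 1.79). Of 13 class II presentation genes, which bear on CTSS, 10 were tested and 5 rose with PMA, against 27.9% of all tested genes. IFI30, the lysosomal thiol reductase, rose from 4.76 and 4.77 to 20.3 and 27.6 TPM (log2 2.55), and HLA-DMA from 1.33 and 1.4 to 3.58 and 5.05 TPM (log2 1.89). The count of 5 went to 2 without replicate 1 of both PMA groups.

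With Ceefourin 2 added to PMA, 1 inhibitor was called lower, 0 hydrolases higher and 1 lower, and 0 CTSC substrates higher. Over all genes 0.918% were called higher and 0.913% lower. With the replicate block the list counts were 2, 3, 3 and 2, where 821 of all genes were called higher and 661 lower. Over all genes, Ceefourin 2 alone gave 0.959% called higher and 0.722% lower, and 807 and 623 genes with the block. With Ceefourin 2 alone, 3 hydrolases were called higher and 0 lower, against 4 and 1 with the block, and 1 membrane and pump gene higher, against 2. Added to PMA, it was followed by a lower GUSB, the lysosomal glucuronidase (28.0 and 31.9 to 15.2 and 17.4 TPM, log2 -0.84, edgeR adjusted p = 0.0195), among 37 hydrolases, and by a higher SCARB2, the receptor that carries glucocerebrosidase (21.99 and 17.8 to 29.4 and 28.7 TPM, log2 0.58, edgeR adjusted p = 0.0227), among 24 membrane and pump genes. The GUSB call was lost without PMA replicate 2 or either PMA plus Ceefourin 2 library (log2 -0.95 to -0.71), and the SCARB2 call without any 1 of the 4 libraries compared (log2 0.53 to 0.63). Without PMA, IDS and NEU1 rose (log2 0.88 and 0.51) and so did NPC1 (log2 0.59), calls lost in 3, 12 and 12 of 18 alternatives. IDS was lost without untreated replicate 1, and NEU1 and NPC1 without any 1 of the 8 libraries. The granule protease GZMA was called higher (3.17 and 3.60 to 7.57 and 9.59 TPM) and TPSB2 lower (0.53 and 0.56 to 0.08 and 0.12 TPM), both lost without any 1 of the 8 libraries (log2 1.09 to 1.52 and -2.82 to -2.19). The medians of the hydrolase and membrane lists stayed between -0.06 and 0.05 in both Ceefourin 2 comparisons, beside 0.002 and -0.005 over all genes.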

How the data were processed

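Stranded mRNA libraries of 8 MEG-01 samples were analysed. The submitters' processing notes name STAR 2.7, RSEM 1.3.1 and hg38, and no annotation release. The authors deposited expected counts per gene, not normalized, and TPM values, which were used for levels. These counts, after rounding, went into edgeR 4.0.16 under R 4.3.3 (filterByExpr, which kept 17314 of 60754 genes and 7 of 8 cathepsins, TMM, quasi-likelihood tests in 1 fit of 8 libraries with a mean per group, 4 residual degrees of freedom). Adjusted p values are Benjamini-Hochberg over all tested genes, and a gene was called, or said to rise or fall, below 0.05. Standard errors are the log2 fold change over the square root of F, and intervals use its degrees of freedom. Alternatives used DESeq2 1.42.0, limma 3.58.1 on log2(TPM + 1) and log2(TPM + 0.1), other filters and scalings, a replicate block and fits without 1 library. A fit without replicate 1 of both PMA groups was added after seeing the data; in fits that leave 1 library in a group, that library is assumed to vary like the others. Same-numbered libraries deviated together in all 6 pairs of groups (correlation of deviations 0.137 to 0.363). The labels do not say that the number marks a pair, so the block was kept as an alternative. If the number does mark pairs, the reported p-values, standard errors and intervals leave that pairing out. The tests without the block are the ones reported, and block values stand beside a result where they change its call.

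The members and all lists were chosen with earlier results of these data known. All 8 cathepsins and every other cathepsin were named; from other lists, the up to 4 called genes with the smallest p, with all inhibitors, processing genes and MiT/TFE factors allowed. A gene that the rule names is not reported here. Positions came from GENCODE 29 on GRCh38 and promoters from RefSeq. Scripts were tested on simulated data.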

Additional observations from a re-analysis of the deposited data

How the results depend on the processing

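Each result was recomputed under up to 18 alternatives. The rises of CTSA, CTSB and CTSL with PMA kept their calls in all of them, in both comparisons that measure PMA. With the limma fits on log2(TPM + 1) and log2(TPM + 0.1), and without replicate 1 of both PMA groups, 3 cathepsins were called higher after PMA; 1 was called lower with the replicate block and with no low-count filter. When a library was left out in turn, 3 to 5 were called higher after PMA and 0 lower. For PMA plus Ceefourin 2 against PMA, log2(TPM + 0.1) and the fit without replicate 1 of both groups gave 0 higher and 0 lower, the fit of only the 2 groups 0 lower, DESeq2 2 lower, and the replicate block 2 higher and 3 lower; leaving out 1 library gave 0 to 1 higher and 0 to 1 lower. The CTSS fall with Ceefourin 2 alone gave way to 0 lower under log2(TPM + 0.1), in the fit of only the 2 groups and without replicate 1 of both PMA groups, and 0 to 1 with 1 library left out. For PMA plus Ceefourin 2 against Ceefourin 2, both limma fits gave 2 lower, and the replicate block, no filter and the fit without replicate 1 of both PMA groups 1 lower; 1 library left out gave 4 to 5 higher and 0 to 1 lower. In the interaction, DESeq2, no filter and the replicate block gave 1 higher, CTSL.

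Genes called in all numbered 317 for PMA plus Ceefourin 2 against PMA, and 799 with DESeq2, 1211 without a filter, 81 under log2(TPM + 0.1), 1482 with the replicate block, 1 without replicate 1 of both PMA groups and 21 to 324 with 1 library left out. For Ceefourin 2 against untreated they numbered 291, and 837, 1174, 173 (log2(TPM + 1)), 86, 1430, 41, 31 in the fit of only the 2 groups and 30 to 188. For the interaction they numbered 2, and 5 with DESeq2 size factors, 210 with DESeq2, 414 without a filter, 0 with a filter of 1 CPM, 19 and 1 on the 2 TPM scales, 247 with the replicate block, 0 without replicate 1 of both PMA groups and 0 to 2 with 1 library left out. What caused these changes was not tested, and fits that leave out libraries have fewer samples.

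The log2 fold changes of single cathepsins that changed sign were those of CTSD after PMA (-0.000604 and -0.000610 on the TPM scales, 0.23 to 0.27 with 1 library left out), CTSB with Ceefourin 2 alone (0.00734 and 0.00738 on the TPM scales, -0.138 to 0.00606), CTSC with Ceefourin 2 added to PMA (-0.0531 without replicate 1 of both groups, -0.134 to 0.198), and CTSD with both agents against Ceefourin 2 (0.00722 without replicate 1 of both PMA groups, -0.138 to 0.0357). With 1 library left out, CTSC, CTSD and CTSH with Ceefourin 2 alone ranged from -0.00402 to 0.156, -0.0711 to 0.105 and -0.235 to 0.289, and the interactions of CTSC and CTSH from -0.205 to 0.127 and -0.532 to 0.00226. The replicate block changed no call of the 7 cathepsins beyond those given beside the results. The 7 expressed cathepsins had at least 1328 counts in each library, and whether depth limited their calls was not tested; CTSZ, at 0 to 4 counts, could not be compared.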
